A study of Mus musculus with 12 samples.

Results

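The 7 genes described here mark the choroid plexus and the roof plate of the developing brain, and were followed in the medial telencephalon of the mouse embryo: the transcription factor genes Otx2, Lmx1a and Lmx1b, and the choroid plexus epithelium genes Ttr, Clic6, Kcne2 and Folr1. They are 7 of the 19751 genes that could be named on the arrays, chosen by name, with every probe that carried their RefSeq accession: 2 probes each for Lmx1b and Folr1 and 1 for each of the others. Levels were read on 12 one-colour Agilent arrays, 3 in each of 4 groups. In all groups, CD-1 embryos were electroporated in the medial telencephalon at E11.5 with a vector for nuclear EGFP, and the GFP-positive cells were sorted 24 hours later, at E12.5 (embryonic day). One group received control siRNAs, a further pair of groups received siRNA set 1 or siRNA set 2, both directed against Dmrt3 and Dmrta2, and the fourth received an expression vector for Dmrta2 (the Dmrta2 plasmid). The only control was control siRNAs, so that an effect of the Dmrta2 vector and an effect of giving a plasmid in place of siRNAs cannot be told apart. The labels call the replicates independent and do not say how many embryos each one held. In such bulk RNA, fewer cells of a type and less RNA per cell cannot be told apart.

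The choroid plexus is the secretory epithelium that makes cerebrospinal fluid, and in the telencephalon it forms at the dorsal midline, next to the cortical hem, which borders the cortex and sends out Wnt and BMP signals. The roof plate is the dorsal midline signalling centre from which both arise. Otx2 is a homeobox factor needed for choroid plexus development, and Lmx1a and Lmx1b are LIM homeobox factors of the roof plate, Lmx1a also being a marker of the hem. Ttr encodes transthyretin, the thyroid hormone carrier that choroid plexus cells secrete in large amounts. Dmrt3 and Dmrta2 are DM-domain transcription factors of the medial cortex, in the field beside the hem.

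The sequence before the start of a gene is where such factors can bind, and 4 of the 7 genes have entries in the RefSeq promoter table used here (build GRCm38.p6): Otx2, Lmx1a, Lmx1b and Kcne2. Otx2 is shown because, among the 6 genes that could be tested, it had the smallest adjusted p-value in any comparison, and Lmx1a because it is the midline factor that read highest with the Dmrta2 plasmid. The table has 4 start sites for Otx2. The first window is chr14:48667645-48667894 and the second, upstream of the third start site, is chr14:48665110-48665359, both on the minus strand. The Lmx1a window is chr1:167689308-167689557 on the plus strand. Each runs 5′ to 3′ over the 250 bases before the start site, and capitals mark matches, on either strand, to the homeodomain core TAATTA or to TAATCC, the core bound by factors of the Otx class.
Otx2, start site 1: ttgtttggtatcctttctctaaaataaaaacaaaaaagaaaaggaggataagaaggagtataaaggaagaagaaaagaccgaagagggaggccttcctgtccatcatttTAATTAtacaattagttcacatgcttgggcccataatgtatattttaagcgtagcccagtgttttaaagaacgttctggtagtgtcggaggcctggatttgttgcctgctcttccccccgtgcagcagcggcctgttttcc
Otx2, start site 3: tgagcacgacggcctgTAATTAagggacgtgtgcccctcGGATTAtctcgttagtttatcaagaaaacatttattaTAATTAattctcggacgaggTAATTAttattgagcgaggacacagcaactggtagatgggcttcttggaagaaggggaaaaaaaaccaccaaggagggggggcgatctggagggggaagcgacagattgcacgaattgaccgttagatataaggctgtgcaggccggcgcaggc
Lmx1a: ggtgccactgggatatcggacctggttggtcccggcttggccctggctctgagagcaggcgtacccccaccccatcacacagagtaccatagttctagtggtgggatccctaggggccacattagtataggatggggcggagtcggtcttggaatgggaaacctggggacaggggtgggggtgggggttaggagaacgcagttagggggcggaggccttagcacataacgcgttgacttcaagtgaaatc
The third Otx2 start site had 3 matches to TAATTA, 234, 174 and 154 bases before the start, and 1 to TAATCC on the opposite strand, 211 bases before it, and the matches shared no base. The first start site had 1 match to TAATTA. The windows of the other Otx2 start sites, Lmx1a, Lmx1b and Kcne2 held no match to either. ACATTGT, a core of the motif bound by DM-domain proteins, was in none of the windows of the 4 genes. Over the 250 bases before all 32851 start sites of the table, 4.84% held TAATTA, 6.25% held TAATCC and 2.56% held ACATTGT. These are matches of letters in a window, with no measurement of binding.

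Levels are given as log2 of the processed spot signal minus the 75th percentile of the same array, so that 0 is the signal of a probe brighter than 75% of the array. To be tested, a gene needed a probe well above background on 3 arrays or more, which Otx2, Lmx1a, Lmx1b, Ttr, Clic6 and Folr1 passed and Kcne2 did not. Differences between groups were tested with limma over all 15369 genes that passed, and adjusted p-values (Benjamini-Hochberg) cover all of those genes. Of the 6 genes tested, 0 passed an adjusted p of 0.05 in any of the 6 comparisons. The share of all genes that passed was 0.703% for both siRNA sets against control siRNAs, 0.215% for set 1, 0.943% for set 2 and 0.28% for the Dmrta2 plasmid, each against control siRNAs. It was 0.0781% for set 2 against set 1 and 2.15% for the Dmrta2 plasmid against both siRNA sets. At an unadjusted p under 0.05 the 6 genes gave 3 in both sets against control (12% of all genes), 3 in set 1 (9.97%), 0 in set 2 (12.8%), 2 with the Dmrta2 plasmid (4.48%), 1 in set 2 against set 1 (9.75%) and 1 in the plasmid against both sets (13.3%). Adding the slide as a block, the number of genes called rose from 108 to 234 for both sets, from 33 to 115 for set 1, from 145 to 362 for set 2, from 12 to 37 for set 2 against set 1 and from 331 to 530 for the plasmid against both sets, and still held none of the 6. The comparisons against control siRNAs share the same 3 control arrays.

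**Figure D1:**
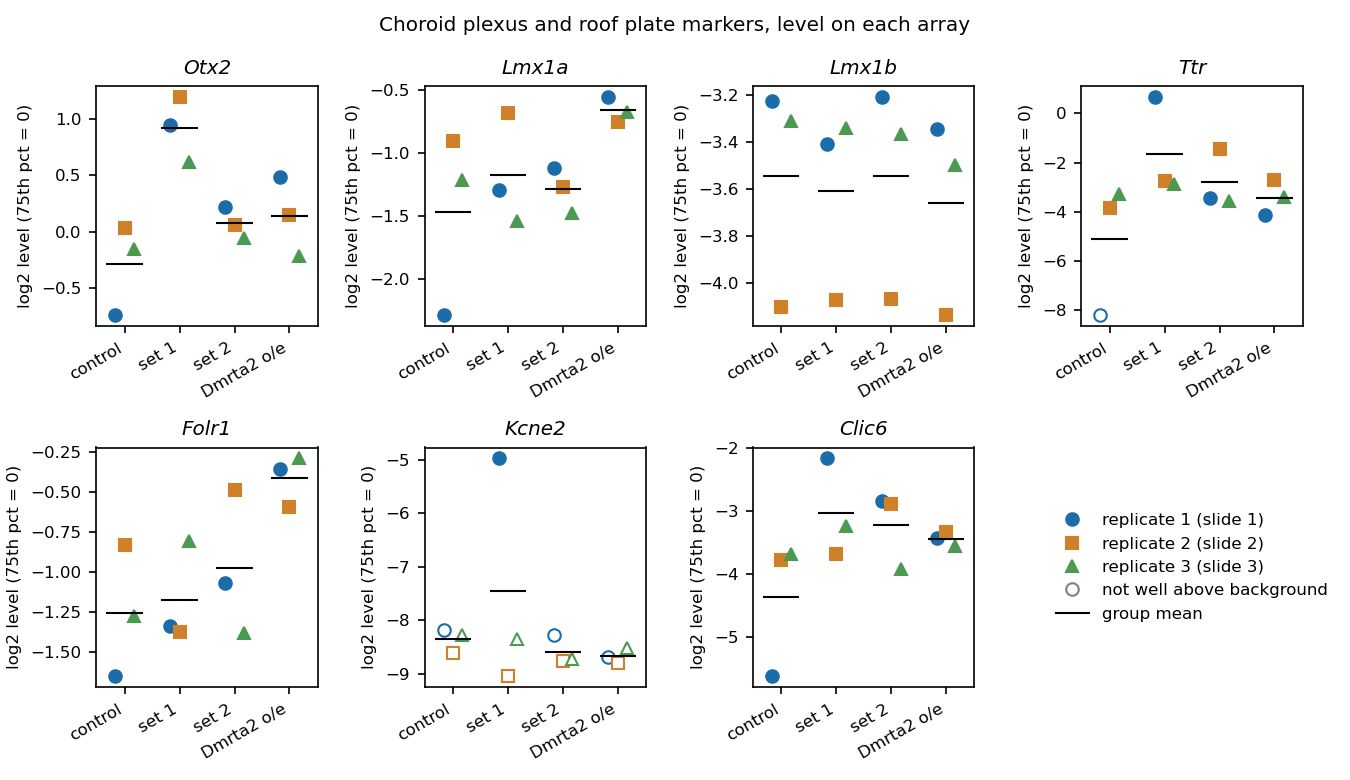
Level of each of the 7 genes on each of the 12 arrays (log2 processed signal minus the array's 75th percentile), by group, with the replicate and slide as colour and shape; open points were not well above background and bars are group means. Otx2 is higher on the 3 siRNA set 1 arrays than on the 9 others, Kcne2 rises above background on 1 array, and Ttr and Clic6 are lowest on control replicate 1.

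The targeted genes were read first. Dmrt3 stood at 0.06, 0.33 and 0.68 with control siRNAs, at -1.13, -0.13 and -0.72 with set 1, and at -0.81, -0.04 and -0.47 with set 2. All 6 siRNA arrays lay below the 3 control arrays, and the sets together stood at 53.5% of control (limma adjusted p = 0.161, which became 0.0280 once the slide entered as a block). Dmrta2 stood at 72.7% of control over both sets (limma adjusted p = 0.207). In set 1 it stood at 65.5%, with all arrays below the controls (limma adjusted p = 0.190). In set 2 it stood at 80.8%, with arrays that overlapped the controls (limma adjusted p = 0.495) and a difference of 0.07 on slide 2. On arrays that carry the label Dmrta2 overexpression, its probe read 2.10, 2.18 and 1.93, against 2.72, 2.37 and 2.61 with control siRNAs, or 71.0% of control (limma adjusted p = 0.595). Where this probe lies relative to the insert of the vector is not given in the sources used here, so this reading does not check that label, and every direction given for the plasmid arrays rests on the label alone.

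Of the 12 arrays, 2 stood apart for these genes, and the differences that rest on them are given also without the array or without its slide. Control siRNAs replicate 1 was the lowest of the 12 arrays for 5 of the 6 genes tested (Otx2, Lmx1a, Ttr, Folr1 and Clic6), against 7.32% of all genes. It was also the lowest for 8 of the 18 cortical hem genes and 4 of the 11 meninges and mesenchyme genes on the lists used here. Set 2 replicate 3 was the lowest for 6 of the hem genes. Of 42 other choroid plexus epithelium genes, 8 were lowest on control replicate 1 and 11 on set 2 replicate 2. Of 29 roof plate genes, 5 each were lowest on control replicates 1 and 3 and on set 2 replicate 2. Set 1 replicate 1 was the highest of the 12 for Ttr and Clic6, and for 7 of the 11 mesenchyme genes, beside 10% of all genes. The median of those 11 genes lay 1.96 above their 12-array medians on that array and between -0.61 and 0.52 on all the others, and the erythroid list lay 1.28 above. Both arrays were on slide 1, where the difference between set 1 and control siRNAs was 3.47 for Clic6 and at least 6.68 for Ttr, which was not well above background on the control array of that slide. How much of these differences comes from other cell types in the sorted material was not tested. The telencephalon markers Emx2 and Lhx2 were well above background on every array.

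Otx2 stood highest in siRNA set 1. Its level was 0.95, 1.19 and 0.62 on the set 1 arrays, in the order of replicates 1 to 3. It was 0.22, 0.06 and -0.06 with set 2, 0.49, 0.15 and -0.21 with the Dmrta2 plasmid, and -0.74, 0.03 and -0.15 with control siRNAs. The 3 set 1 arrays lay above all 9 others, and the other groups overlapped. The mean difference from control siRNAs was 1.20 ± 0.24 (SE, n = 3 per group) in set 1, a ratio of 2.30, with a limma adjusted p of 0.0747. It was positive on each slide, at 1.68, 1.16 and 0.77. Of the 6 genes tested, 2, Otx2 and Ttr, were higher on all set 1 arrays than on all control arrays, which 7.47% of all genes were.

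In set 2 the difference of Otx2 from control siRNAs was 0.36 ± 0.24 (limma adjusted p = 0.606), with 0.95 on slide 1 and 0.03 and 0.09 on the others, and it was 0.13 without control replicate 1 and 0.06 without slide 1. Between the siRNA sets, Otx2 was lower in set 2 on every slide, by a mean of -0.84 ± 0.24 (95% interval -1.37 to -0.32), and the adjusted p was 0.242. It was the single one of the 6 genes whose set 2 arrays lay wholly below its set 1 arrays, which 6.25% of all genes did. For both sets together the difference was 0.78 ± 0.21 (limma adjusted p = 0.130), and 0.51 without slide 1. With the Dmrta2 plasmid it was 0.42 ± 0.24 against control siRNAs (adjusted p = 1.00), and 0.02 without slide 1. Without control replicate 1 the set 1 difference was 0.98, and without slide 1 it was 0.96. The ordering of the group means was thus set 1, the Dmrta2 plasmid, set 2 and control siRNAs, and beyond set 1 the neighbouring groups did not differ by more than the spread of their arrays.

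The 3 genes whose levels followed Otx2 most closely over the 12 arrays, among 13338 genes well above background on all of them, were Tdrp (Pearson r = 0.94, Spearman rho = 0.90), Metrnl (0.94 and 0.95) and Tgfb3 (0.89 and 0.83). Tgfb3 encodes a TGF-beta ligand and Metrnl a secreted protein. With slide means removed, r was 0.96, 0.95 and 0.90. Without the 2 arrays farthest from the Otx2 median, r was 0.87, 0.90 and 0.74. These are the largest values of a search over many genes, the arrays share slides, and no test is attached to them.

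Lmx1a was highest, and least spread, with the Dmrta2 plasmid. Its level was -0.55, -0.76 and -0.67 there, against -2.29, -0.90 and -1.21 with control siRNAs. With set 1 it was -1.30, -0.68 and -1.54, and with set 2 -1.12, -1.27 and -1.48. All 3 plasmid arrays lay above the 3 control arrays, but set 1 replicate 2 lay within the plasmid range. The difference from control siRNAs was 0.81 ± 0.32 (SE, n = 3 per group; limma adjusted p = 0.912). It was 1.73 on slide 1 and 0.15 and 0.54 on the others, and 0.40 without control replicate 1. Of the 6 genes tested, 3, Lmx1a, Folr1 and Clic6, were higher on all plasmid arrays than on all control arrays, which 5.88% of all genes were.

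With each siRNA set the sign of the Lmx1a difference from control siRNAs changed between slides. Both sets together differed from control siRNAs by 0.24 ± 0.28 (limma adjusted p = 0.847), and by -0.17 without control replicate 1. The plasmid against both sets gave 0.57 ± 0.28 (limma adjusted p = 0.430), positive on each slide at 0.65, 0.22 and 0.84. Set 2 and set 1 differed by -0.12, with a 95% interval of -0.83 to 0.60. The order of the means was the plasmid, set 1, set 2 and control siRNAs, and among the last 3 no neighbours differed beyond the spread of their arrays.

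The genes closest to Lmx1a were themselves genes of the hem and its Cajal-Retzius neurons. Trp73, which encodes p73 and marks Cajal-Retzius neurons, had r = 0.91 (rho = 0.89) over the 12 arrays. Fzd10, a Wnt receptor gene of the dorsal midline, had r = 0.89 (rho = 0.85), and Rspo1, which encodes a secreted amplifier of Wnt signals, had r = 0.87 (rho = 0.91). Without the 2 arrays farthest from the Lmx1a median, r was 0.80, 0.70 and 0.95. Rspo1 stood at 3.02, 3.09 and 2.91 on the plasmid arrays, and its control arrays at 1.99, 2.73 and 2.39. Fzd10 stood at -1.98, -2.12 and -1.66 against -4.18, -2.47 and -3.10, so that control replicate 1 was its lowest array as well.

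**Figure D2:**
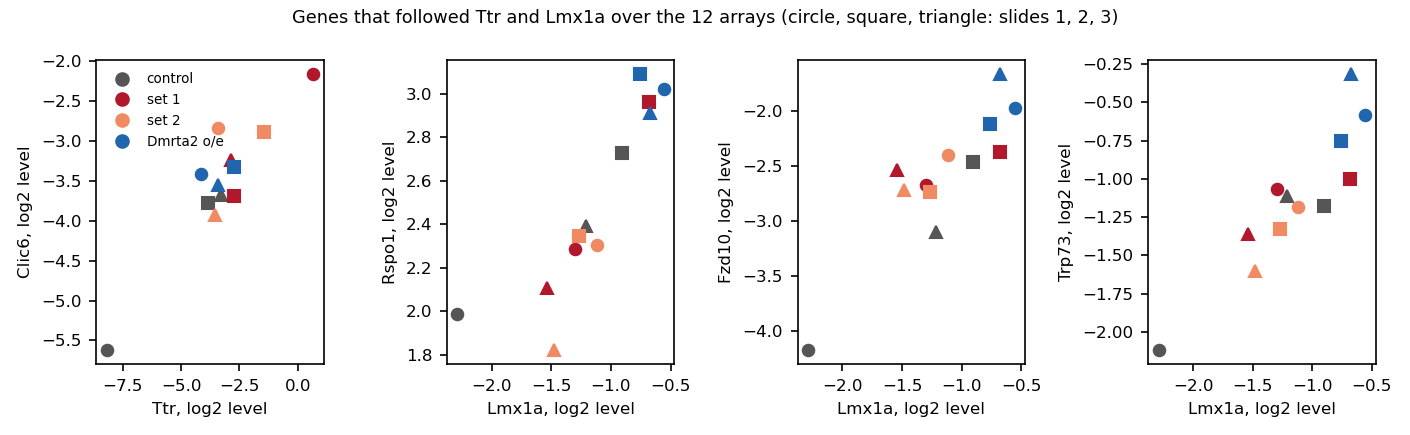
Level of Clic6 against Ttr, and of Rspo1, Fzd10 and Trp73 against Lmx1a, on each of the 12 arrays (log2 levels, colour for group, shape for slide). The 3 Dmrta2 plasmid arrays sit at the upper right for the 3 Lmx1a pairs, control replicate 1 sits alone at the lower left for Ttr, Fzd10 and Trp73, and siRNA set 1 replicate 1 sits alone at the upper right for Ttr.

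Lmx1b, the paralogue of Lmx1a, followed the slide and not the group. Its level was -3.23, -4.10 and -3.31 with control siRNAs and -3.41, -4.07 and -3.34 with set 1. It was -3.21, -4.07 and -3.37 with set 2, and -3.34, -4.13 and -3.50 with the plasmid. All 4 arrays of slide 2 lay below the 8 others. Slides held 96.8% of the variance of Lmx1b over the 12 arrays and groups 1.64%, whereas for Otx2 slides held 6.26% and groups 74.9%. The differences from control siRNAs were -0.06 for set 1, -0.00056 for set 2 and -0.11 for the plasmid. Each had an SE of 0.33 in the fit of groups alone, in which the slide differences count as spread, and of 0.08 with the slide as a block. With the block the 95% intervals reached from -0.25 to 0.13, from -0.19 to 0.19 and from -0.30 to 0.08, and without it the first reached from -0.79 to 0.66.

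The second Lmx1b probe was also lowest in replicate 2 of every group, at -4.70, -4.39, -4.39 and -4.63 for control, set 1, set 2 and the plasmid. It gave 0.26 ± 0.27 for set 1 (limma adjusted p = 0.869), of the opposite sign to the first probe. The genes closest to Lmx1b were C1rl, Trp53bp2 and Tdg, with r from 0.98 to 0.99, and these fell to between 0.56 and 0.62 once slide means were removed. Over the 12 arrays, Lmx1a and Lmx1b gave r = -0.46.

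**Figure D3:**
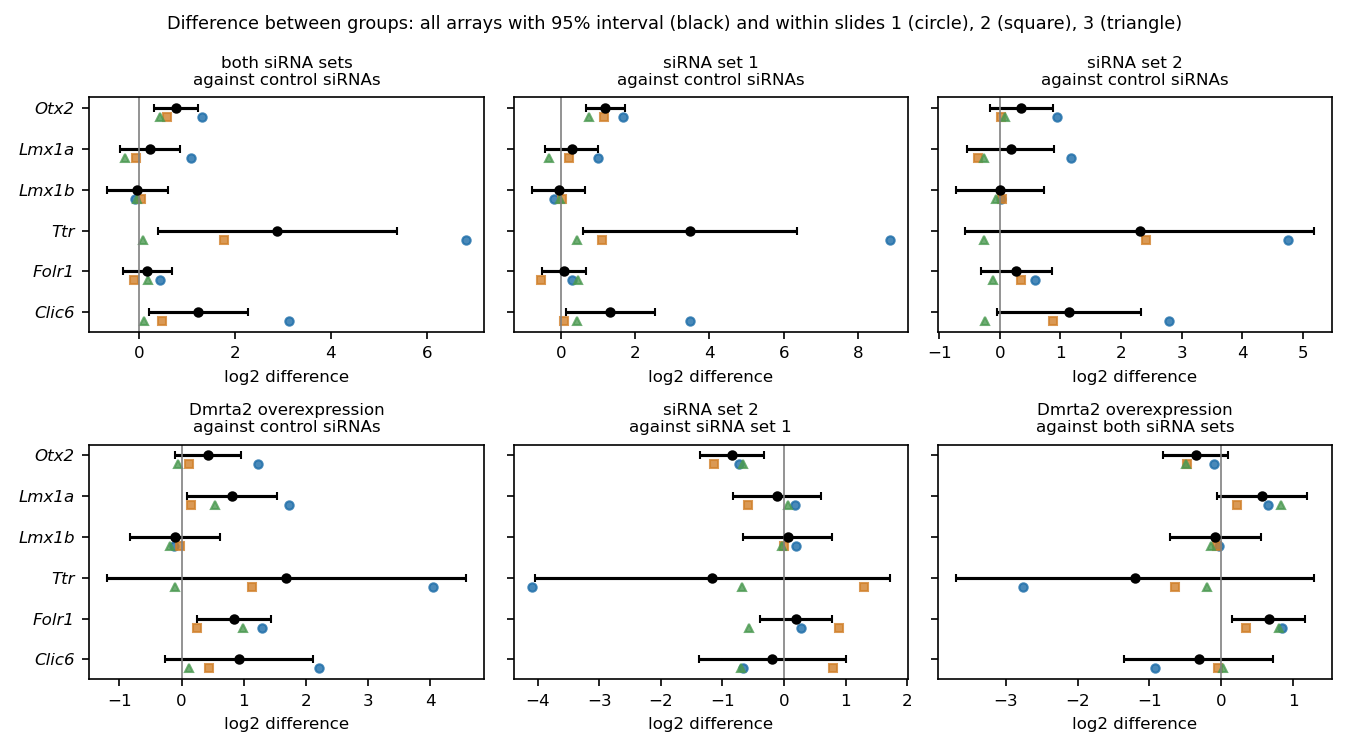
Log2 difference between groups for the 6 genes tested, in each of the 6 comparisons; black points and bars are the limma estimate over all arrays with its 95% interval, and coloured shapes are the differences within slides 1 to 3. Otx2 in siRNA set 1 lies at 1.20 with all 3 slides above 0, whereas the estimates for Ttr and Clic6 against control siRNAs are largest on slide 1, where Ttr is drawn at its measured value although the control array was below background.

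Ttr covered the widest range of the 7 genes, at least 6.68 on the log2 scale. Its level was -8.19, -3.85 and -3.30 with control siRNAs and 0.67, -2.74 and -2.86 with set 1. It was -3.43, -1.44 and -3.55 with set 2, and -4.15, -2.73 and -3.41 with the plasmid. Control replicate 1 was the single array on which Ttr was not well above background, where the lowest such signal of that array was -6.01, so the first value has only that bound. The 3 set 1 arrays lay above the 3 control arrays, while the other groups overlapped them.

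The difference of Ttr from control siRNAs was 3.47 ± 1.30 in set 1 (SE, n = 3 per group; limma adjusted p = 0.383) and 2.31 ± 1.30 in set 2 (adjusted p = 0.520). Both estimates use the measured signal of control replicate 1, which lay below background. Within slides, set 1 gave at least 6.68 on slide 1 and 1.11 and 0.43 on the others, and set 2 gave at least 2.58 on slide 1 and 2.42 and -0.25 on the others. The size of the estimate rested on slide 1: without it the set 1 difference was 0.77 ± 0.65, without control replicate 1 it was 1.93, and without set 1 replicate 1 it was 2.31. The set 2 difference was 0.77 ± 1.03 without control replicate 1 and 1.08 ± 0.65 without slide 1. With control replicate 1 placed at its lowest measured signal the differences were 2.74 ± 1.00 for set 1 and 1.58 ± 1.00 for set 2. That placement also narrows the spread of the controls, so these SEs do not measure it in full. With the plasmid Ttr differed from control siRNAs by 1.69 ± 1.30 (limma adjusted p = 1.00), and by 0.15 without control replicate 1. Set 2 differed from set 1 by -1.16 ± 1.30 (limma adjusted p = 0.878), and by 0.31 ± 0.65 without slide 1. Set 1, set 2, the plasmid and control siRNAs was the order of the means, and no neighbouring pair differed beyond the spread of its arrays.

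Clic6, which encodes a chloride intracellular channel protein of secretory epithelia, followed Ttr. Its level was -5.62, -3.78 and -3.67 with control siRNAs and -2.16, -3.68 and -3.23 with set 1. With set 2 it was -2.83, -2.89 and -3.92, and with the plasmid -3.42, -3.33 and -3.55. The plasmid arrays alone lay wholly above the controls. Clic6 differed from control siRNAs by 1.33 ± 0.54 in set 1 (limma adjusted p = 0.429), 1.14 ± 0.54 in set 2 (0.419) and 0.93 ± 0.54 with the plasmid (1.00). Without slide 1 these were 0.27, 0.32 and 0.29, and without control replicate 1 they were 0.70, 0.51 and 0.29. The means ran from set 1 through set 2 and the plasmid to control siRNAs. Set 1 overlapped with set 2 and set 2 with the plasmid, and the plasmid arrays stood clear of the controls, from -3.55 up against -3.67 down.

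Among all genes measured on every array, Clic6 was the one closest to Ttr, with r = 0.93 and rho = 0.65 over the 12 arrays. Without slide 1, r was 0.87 over 8 arrays, and without the 2 arrays farthest from the Ttr median it was 0.50, so that much of the relation rests on those 2 arrays. Next to Ttr stood Car12, a membrane carbonic anhydrase gene (r = 0.80, and 0.60 without the 2 farthest arrays), and Cryl1 (0.78 and 0.42). The closest genes to Clic6 were Lrp2, which encodes the endocytic receptor megalin (r = 0.84, and 0.37 without the 2 farthest arrays), Pltp (0.82 and 0.60) and Hcls1 (0.80 and 0.40).

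Kcne2 encodes a potassium channel subunit found on the apical side of choroid plexus cells. It was well above background on 1 of the 12 arrays, set 1 replicate 1, at -4.97. On the 11 others it read between -9.05 and -8.18, not well above background, and no fold change is given. The same array held the highest Ttr and Clic6, and it had the highest mesenchyme and erythroid medians. The part of those cells in the Kcne2 signal was not tested.

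Folr1, which encodes the folate receptor that choroid plexus cells use to carry folate, was highest with the Dmrta2 plasmid. Its brighter probe read -0.36, -0.59 and -0.29 there, and -1.65, -0.83 and -1.27 with control siRNAs. It read -1.34, -1.37 and -0.80 with set 1, and -1.07, -0.49 and -1.38 with set 2. The plasmid arrays lay above the controls and overlapped with set 2 through its second replicate. The difference from control siRNAs was 0.84 ± 0.27 (SE, n = 3 per group; limma adjusted p = 0.516), or a ratio of 1.79. Within slides it was 1.29, 0.24 and 0.98, and without control replicate 1 it was 0.64. Against both siRNA sets the plasmid differed by 0.66 ± 0.23 (limma adjusted p = 0.219), positive on each slide.

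The siRNA sets lay near the controls for Folr1, at 0.08 ± 0.27 for set 1 and 0.28 ± 0.27 for set 2, and at -0.12 and 0.08 without control replicate 1. The means ran from the plasmid through set 2 and set 1 to control siRNAs, and the last 3 did not differ from their neighbours beyond the spread. The second Folr1 probe, read between -4.63 and -4.04 on all arrays, did not show the plasmid difference: it gave 0.12 ± 0.17 (limma adjusted p = 1.00). The genes closest to the brighter probe were Fam183b (r = 0.89, rho = 0.90), Scube3 (0.86 and 0.86) and Pde1a (0.85 and 0.85), and without the 2 farthest arrays r was 0.86, 0.78 and 0.73. Over the 12 arrays, Folr1 and Otx2 gave r = 0.01.

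**Figure D4:**
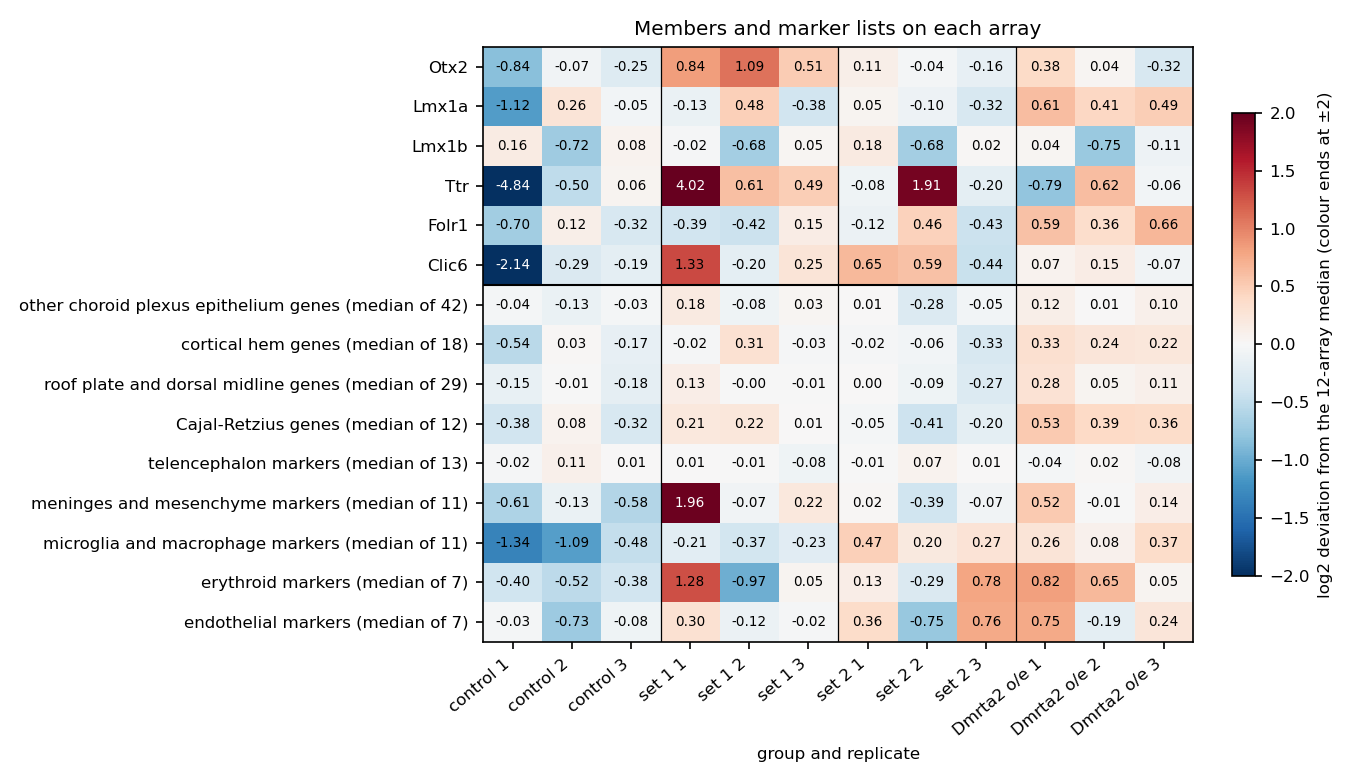
Deviation from the 12-array median (log2) of each of the 6 genes tested and the median deviation of each marker list, for each array; colours end at 2 in either direction and the numbers are printed. Control replicate 1 is low for 5 of the 6 genes and for the hem list (-0.54), and siRNA set 1 replicate 1 is high for Ttr, Clic6 and the mesenchyme list (1.96).

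Other genes of the choroid plexus epithelium passed the test mainly between the plasmid and the siRNA sets. Of 50 further choroid plexus epithelium genes listed, 42 were tested, and 6 of them (14.3%) passed there, beside 2.15% of all genes. In that comparison, 4 of 12 Cajal-Retzius genes, 2 of 8 surface epithelium genes and 3 of 29 roof plate genes also passed. So did 1 of 8 yolk sac, liver and serum protein genes and 2 of 19 diencephalon, midbrain and eye genes. Of 13 telencephalon and 18 hem genes 1 each passed, and 0 of the mesenchyme, erythroid, endothelial and microglia genes. A share above that of all genes was thus not particular to the choroid plexus list. Of its 6, Krt8 and Trpm3 had passed the background filter only through arrays of the groups where they were high. Against control siRNAs, 1 of the 42 (2.38%) passed in both sets and in set 2, Trpm3, beside 0.703% and 0.943% of all genes. With the plasmid 1 passed, Krt8, beside 0.28% of all genes, and 0 passed in set 1. The median difference over the 42 was 0.09 in set 1 and 0.20 with the plasmid, beside medians over all genes of -0.0083 and 0.0083, and without slide 1 it was -0.0045 in set 1 and 0.21 with the plasmid. With the plasmid 29 of the 42 were above control siRNAs and 13 below, beside 52.4% of all genes above. Aqp1, the water channel gene of the apical membrane, read -3.27 ± 0.24 (SD) with control siRNAs and -2.54 ± 0.12 with the plasmid, and its difference did not pass. Among the 13 that were lower, Kcnj13 read -3.31 ± 0.40 and -3.52 ± 0.15, and Cldn3 -3.22 ± 0.56 and -3.79 ± 1.04, and these did not pass either.

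Trpm3, a cation channel gene, was well above background on all 6 siRNA arrays and on none of the control or plasmid arrays. Measured means were -5.88 over the sets and -7.78 in the controls, where it lay below background, which makes it at least 1.35-fold higher in the sets (limma adjusted p = 0.0215). Such bounds set the mean of the brighter group against the lowest signal well above background on each array of the dimmer group. Krt8, a keratin gene of simple epithelia, was well above background on the 3 plasmid arrays, at -4.43, -4.69 and -4.28, and on no other. It was at least 3.59-fold higher than in control siRNAs (limma adjusted p = 0.00295). Krt8 passed the background filter only through the plasmid arrays, and Trpm3 only through the siRNA arrays. Both were thus tested because of the groups where they were high, and against signals below background, so their p-values are no independent support. Without slide 1, which leaves 8 arrays, neither passed: Trpm3 gave a fitted difference of 1.50, against 1.91 on all arrays (limma adjusted p = 0.340), and Krt8 gave 3.49 against 3.50 (adjusted p = 0.245). The call of Trpm3 over both sets held in 8 of the 12 fits that left out 1 array, being lost without control replicate 1 or 3 or set 1 replicate 2 or 3, and its call in set 2 held in 5 of the 12. With unmeasured arrays placed at their lowest measured signal, Trpm3 differed by 0.43 over both sets (limma adjusted p = 0.526) and did not pass.

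Between the plasmid and both siRNA sets, 6 of the 42 passed. Krt8 (at least 4.32-fold), its partner keratin Krt18 (1.56 ± 0.25, log2), the cation channel gene Trpv4 (1.44 ± 0.22), Lbp (1.35 ± 0.21) and the organic anion pump gene Abcc4 (0.76 ± 0.12) were higher with the plasmid, and Trpm3 was lower (at least 1.58-fold). Abcc4 and Krt18 lost the call without plasmid replicate 2 or 3, Lbp without replicate 2 and Trpv4 without replicate 3. The limma adjusted p-values ran from 0.000383 for Krt8 to 0.0451 for Trpm3. Trpm3 lost its call with the slide as a block (adjusted p = 0.0607), with unmeasured arrays at their lowest measured signal (adjusted p = 0.206) and without any one of 9 of the 12 arrays. Of the 50 listed genes, 8 did not reach the background filter and are not in these counts, among them Cldn2, Kl and Htr2c.

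Of 18 cortical hem genes, all tested, 0 passed against control siRNAs in any group, and 1, Lmo2, passed between the plasmid and both sets (1.50 ± 0.24; limma adjusted p = 0.0103), a call lost without plasmid replicate 2 or 3. With the plasmid 17 of the 18 were above control siRNAs, beside 52.4% of all genes, with a median difference of 0.58, and without slide 1 the median was 0.35. Control replicate 1 was the lowest array for 8 of the 18, and all comparisons against control siRNAs share it. In set 1 the median was 0.38, with 15 of 18 above control, beside 48.4% of all genes. Without slide 1 it was 0.20, and for both sets together it changed from 0.27 to -0.07.

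Of 31 listed roof plate and dorsal midline genes, 7 of them shared with the hem list or a further one, 29 were tested, and Olig3, Bmp2 and Msx1 passed in at least 1 comparison. Olig3, a basic helix-loop-helix factor gene of dorsal progenitors, read -2.45, -2.61 and -1.97 in set 1, -5.95, -4.27 and -5.67 in set 2, and -8.01, -6.26 and -7.97 in the controls. It was well above background on all 6 siRNA arrays, on 1 of 3 control arrays and on 1 of 3 plasmid arrays, so that its fitted differences rest partly on unmeasured signals. It rose in set 1, by 5.07 ± 0.71 with the signals as read (limma adjusted p = 0.0237) and by 3.86 ± 0.37 with the unmeasured arrays at their lowest measured signal (adjusted p = 0.00439). Over both sets these were 3.59 ± 0.61 (adjusted p = 0.0334) and 2.39 ± 0.32 (adjusted p = 0.0126). On the plasmid arrays Olig3 was lower than in the sets, by -3.78 ± 0.61 (adjusted p = 0.0120) and -2.49 ± 0.32 (adjusted p = 0.00274). Setting unmeasured arrays to a fixed signal narrows their spread. The SE and adjusted p of that second setting therefore do not measure the spread between replicates, and its differences serve as smaller estimates only. With the signals as read, the set 1 call held in 6 of the 12 fits that left out 1 array and the call over both sets in 3, neither of them without control replicate 1, and the plasmid call was lost without plasmid replicate 1 or 3. Without slide 1 the 3 differences were 4.82, 3.48 and -3.68, and none passed (limma adjusted p from 0.202 to 0.507). Bmp2, a BMP ligand gene, was higher with the plasmid than in both sets by 2.06 ± 0.26 (adjusted p = 0.00327), a call that also held without slide 1 (adjusted p = 0.0354), and the BMP target Msx1 by 0.76 ± 0.13 (adjusted p = 0.0153, lost without plasmid replicate 2 or 3). Against control siRNAs 0 of the 29 passed with the plasmid, where their median difference was 0.38, and 0.25 without slide 1. There 26 were positive, beside 52.4% of all genes, and genes shared with the hem list enter both counts.

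Cajal-Retzius neurons arise from the hem, and 12 of 14 of their listed genes were tested. With the plasmid Ebf1 (1.34 ± 0.18) and Cacna2d2 (1.73 ± 0.25) rose against control siRNAs, with limma adjusted p of 0.0118 and 0.0177. In set 2 Ebf2 fell by 1.16 ± 0.20 (adjusted p = 0.0323). All 3 calls were lost without control replicate 1, and each also without other arrays. Of 12 fits that left out 1 array, the Ebf1 call held in 9, Cacna2d2 in 7 and Ebf2 in 4. Over all genes, 0.28% passed with the plasmid and 0.943% in set 2. Between the plasmid and both sets 4 of the 12 passed (33.3%, beside 2.15% of all genes) and were higher with the plasmid: Cacna2d2 by 2.33, Ebf2 by 1.39, Ebf1 by 1.17 and Lhx5 by 1.11. A further 4, Reln, Calb2, Tbr1 and Lhx1, were lower with the plasmid and did not pass. Reln read -4.61 with the plasmid, -3.67 in set 1 and -3.99 in set 2, and Tbr1 3.66, 4.35 and 3.94. Lhx5 lost its call with the slide as a block, at a limma adjusted p of 0.0514. Against the sets, the Lhx5 call held in 5 of 12 fits without 1 array, and those of Ebf1, Ebf2 and Cacna2d2 in all 12. The Ebf2 and Cacna2d2 differences from the sets kept an adjusted p under the threshold without slide 1, at 0.0354 and 0.0213.

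Over all marker lists, 45 calls were made on 26 genes, of which 6 held in every fit that left out 1 array and 3 held without slide 1. Without slide 1, with 8 arrays in the fit, all 45 differences kept their sign, at between 0.68 and 1.19 times their size on all arrays (median 0.97). As the calls were picked with these 8 arrays included, this is no separate check. The 6 include both Krt8 calls, which were not tested when a plasmid array was left out because too few arrays were then above background. The 3 were Bmp2, Ebf2 and Cacna2d2, each between the plasmid and both sets.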

How the data were processed

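The 7 genes, the marker lists and the comparisons were chosen with earlier results of these data known. Total RNA of sorted cells (0.1 µg per array) was labelled with Cy3 and hybridised to 12 one-colour Agilent arrays, on 3 slides of 4 arrays, per the labels and the file headers. Slide and replicate number are the same, and each group kept 1 position on every slide, so that group and position cannot be told apart. The intensities used were the deposited processed signals of Agilent Feature Extraction 10.5.1.1, background-subtracted and detrended but not scaled between arrays, per the file headers. The deposited log2 table held, per comparison with the scanner values (r of at least 0.999 on every array), these signals scaled to the 75th percentile and centred on each probe's median. Its column medians ran from -0.13 to 0.10, and it served as an alternative.

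Control spots and outlier spots (136 to 218 of 43020 per array) were left out, log2 signals were set against the array's 75th percentile, and spots of 1 probe were averaged. Between 67.1% and 72.2% of spots were well above background. Probes took their gene from a RefSeq accession in a GRCm38.p6 gene table: 26055 of 39429 probes matched, for 19751 genes. A probe was kept if well above background on 3 or more arrays, and the brightest probe on average stood for its gene (15369 genes). All 12 arrays were fitted together with limma 3.58.1 in R 4.3.3 (lmFit, eBayes, 8 residual degrees of freedom), with calls at an adjusted p under 0.05. The procedure was tested on simulated data. The number of arrays limits the precision, and where replicates are not separate litters, p-values measure only the spread between these samples.

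Genes named are the 7 with all their probes, list genes past the threshold in any comparison, up to 2 genes of a list with none, Dmrt3 and Dmrta2, and the 3 genes with the highest Pearson r to each of the 7 that was well above background on at least 10 arrays. Further genes named were chosen after their values were seen. The replicate numbers pair the arrays through the shared slide, per the file headers: over 18 pairs of arrays with 1 number and different groups, deviations from the group means correlated at 0.02 to 0.60, against -0.52 to 0.21 for 36 pairs with different numbers. Alternatives were the slide as a block, other background correction, scaling, filter and probe rules, the deposited table, the groups of a comparison alone, and leaving out each array. Leaving out slide 1, and setting unmeasured arrays to their lowest measured signal, were added after the data were seen. The files hold no mean spot signal, so the normexp correction used the deposited median spot and background intensities, per the file headers, with an offset of 50.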

Additional observations from a re-analysis of the deposited data

Results flagged for a closer look

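Kcne2 was left out of the tests because its probe was well above background on too few arrays, yet it gave a signal on 1 of them: -4.97 (log2, against the 75th percentile) on siRNA set 1 replicate 1. It was not well above background on any control array, where it read -8.18, -8.61 and -8.28. The source of the signal was not tested.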

How the results depend on the processing

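Of 390 recomputed differences of the 6 genes under settings other than leaving out 1 array, 377 kept their direction and none passed the threshold. The 13 that changed sign follow, of which Ttr between the sets moved most, from -1.16 to 0.31. Without slide 1, Lmx1a gave -0.18 for both siRNA sets, -0.053 for set 1 and -0.32 for set 2 against control siRNAs, Folr1 gave -0.036 and Lmx1b 0.00033 for set 1, and set 2 against set 1 gave 0.051 for Clic6, 0.31 for Ttr and -0.0091 for Lmx1b. With the mean of its probes Lmx1b gave 0.036 for both sets, 0.10 for set 1 and -0.12 for set 2 against set 1. Quantile normalization gave Lmx1b 0.00064 for set 2, and normexp correction gave it 0.066 for the plasmid against both sets.

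Leaving out each array in turn, 404 of 432 differences kept their sign and none passed. Ranges that crossed 0 were as follows. Lmx1b ran from -0.31 to 0.13 for both sets, -0.34 to 0.17 for set 1, -0.28 to 0.26 for set 2, -0.39 to 0.13 for the plasmid, -0.17 to 0.32 for set 2 against set 1 and -0.24 to 0.16 for the plasmid against both sets. Lmx1a ran from -0.17 to 0.52 for both sets, -0.11 to 0.58 for set 1, -0.23 to 0.46 for set 2 and -0.30 to 0.13 for set 2 against set 1. Folr1 ran from -0.021 to 0.39 for both sets, -0.12 to 0.29 for set 1 and -0.051 to 0.40 for set 2 against set 1, and Clic6 from -0.52 to 0.24 for the last. The adjusted p of Otx2 in set 1 ran from 0.0573 to 0.265.

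The number of genes past the threshold over all genes moved far more. Given in the order both sets, set 1, set 2 and plasmid against control siRNAs, set 2 against set 1, and plasmid against both sets, it was 108, 33, 145, 43, 12 and 331. The slide as a replicate block gave 234, 115, 362, 56, 37 and 530, and leaving out slide 1 gave 1, 0, 1, 0, 0 and 43. Median scaling gave 55, 14, 50, 42, 1 and 235. Normexp correction gave 39, 24, 57, 26, 20 and 261. No filter gave 37, 26, 26, 34, 0 and 246. Fits of the compared groups alone gave 36, 0, 0, 32, 0 and 254. Requiring all 12 arrays above background gave 26 for the plasmid, and placing unmeasured arrays at their lowest signal gave 50 for set 1. Leaving out 1 array gave 17 to 88, 5 to 84, 13 to 151, 11 to 55, 0 to 12 and 96 to 328. The cause was not tested.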

Other observations

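Markers of cells outside the dorsal telencephalon were read beside these genes. Microglia and macrophage genes were the list with most calls: of 11 tested, 5 rose against control siRNAs over both siRNA sets (Aif1, Cx3cr1, Tyrobp, C1qa and C1qc), 6 in set 2 (the same with Trem2) and 4 with the Dmrta2 plasmid (Aif1, Cx3cr1, Tyrobp and C1qc), with limma adjusted p from 0.00967 to 0.0499. Over all genes, 0.703%, 0.943% and 0.28% passed in these comparisons. In each of them 2 of the 11, Csf1r and Itgam, lay below control siRNAs. Csf1r read 1.920 with control siRNAs, 1.916 in set 2 and 1.887 with the plasmid, and Itgam 3.87, 3.74 and 3.79. In set 1 alone 0 of the 11 passed, beside 0.215% of all genes. Each call was refitted 12 times, leaving out 1 array. Over both sets they held in 1 fit for C1qa and C1qc, 2 for Aif1, 7 for Cx3cr1 and 8 for Tyrobp. In set 2 they held in 4 for C1qa, C1qc and Trem2, 10 for Aif1 and Cx3cr1, and 11 for Tyrobp. With the plasmid they held in 2 for C1qc, 7 for Tyrobp, 9 for Cx3cr1 and 10 for Aif1. C1qa was well above background on 1 of 3 control arrays, so its differences rest partly on unmeasured signals. Without slide 1, which leaves 8 arrays, none of the 15 calls passed. Their differences were 0.68 to 0.99 times those on all arrays, which is no separate check, as the calls were picked with these 8 arrays included. The median over the 11 genes was then 0.85 over both sets, 1.25 in set 2 and 1.31 with the plasmid, against 1.13, 1.64 and 1.56 on all arrays. The median deviation of this list ran from -1.34 to -0.48 on the control arrays and from 0.20 to 0.47 on the set 2 arrays. Of the mesenchyme genes, 11 of 18 were tested and 0 passed. Their medians against control siRNAs were 0.68 over both sets, which became -0.0067 without slide 1, and 0.02 in set 2, with Foxc1, Foxd1, Lum, Twist1 and Ogn among those below the filter. In set 1 the median of the 11 mesenchyme genes was 1.097, with 9 above control siRNAs and 2 below, and 0.245 without slide 1. With the plasmid it was 0.484, with 8 above and 3 below, and 0.244 without slide 1. Among those higher in set 1, Col1a1 read -2.52 ± 2.53 (SD) in set 1 and -4.78 ± 0.75 in the controls, and Col3a1 -3.58 ± 3.29 and -6.27 ± 0.30. Of the erythroid genes 7 of 10 and of the endothelial genes 7 of 10 were tested, and 0 passed.

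Of 19 diencephalon, midbrain and eye genes tested, Tal2, a factor gene of midbrain neurons, was lower over both sets by -1.11 ± 0.20 (limma adjusted p = 0.0425) and in set 2 by -1.56 ± 0.24 (adjusted p = 0.0285), and higher with the plasmid than in the sets by 1.25 ± 0.20 (adjusted p = 0.0120). Tyrp1, a pigment cell gene, was lower with the plasmid than in the sets by -1.59 ± 0.34 (adjusted p = 0.0451). Of 8 yolk sac, liver and serum protein genes tested, Cubn, which encodes an endocytic receptor, was lower with the plasmid than in the sets by -0.93 ± 0.15 (adjusted p = 0.0111), while Afp, Alb, Apoa1 and Apob did not reach the filter. Of 8 surface epithelium genes, Krt17 and Grhl3 were higher with the plasmid than in the sets by 2.07 ± 0.41 (adjusted p = 0.0294) and 2.91 ± 0.42 (adjusted p = 0.00667). Of the 8, 5 lay higher with the plasmid than in the sets and 3 lower. Among the lower, Krt14 read -5.06 with the plasmid, -4.49 in set 1 and -4.88 in set 2, and Esrp1 -3.49, -3.30 and -3.42. Of 13 telencephalon genes, Pax6, a cortical progenitor factor gene, was lower with the plasmid than in the sets by -1.52 ± 0.27 (adjusted p = 0.0173). With the slide as a block, Tal2 over both sets and Tyrp1 lost their calls, at limma adjusted p of 0.0520 and 0.0549. The Tal2 call held over both sets in 1 of the 12 fits that left out 1 array, and in set 2 in 5. Against the sets, Tal2 held in 10, Tyrp1 in 3, Krt17 in 5, Pax6 in 9, Cubn in 10 and Grhl3 in 11. None of these calls passed without slide 1, where the 8 differences kept their sign and were 1.00 to 1.17 times those on all arrays. As the calls were picked with the remaining arrays included, this is no separate check.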
